A study of Mus musculus with 2 samples.

Results

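The 5 beta-defensin genes known from skin, Defb1, Defb3, Defb4, Defb6 and Defb14, were followed in newborn Pnpla1+/+ and Pnpla1-/- mice. They are 5 of 30133 genes with a probe on the array and were found by the gene name that the scanner files give to each probe. The genes were chosen by their intensities on these same arrays, which were already known when they were listed, so the values below are a description and carry no test. Total RNA from P0 skin of C57BL/6N mice was pooled over 6 wild-type (Pnpla1+/+) animals for 1 array and over 6 homozygous knockout (Pnpla1-/-) animals for the other, below called wild-type and knockout skin. The study's methods describe the knockout as a targeted knockout-first allele from C57BL/6N embryonic stem cells, whose LacZ and Neo cassettes were later excised, with wild-type littermates as controls. With a single pooled array on each side, the spread between mice is unknown, and no test of genotype can be run. Both arrays lay on 1 slide and carried the same scan time.

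Beta-defensins are short cationic peptides held together by disulfide bonds, and epithelia secrete them. They disrupt the membranes of bacteria and fungi. Some of them also attract immune cells by binding chemokine receptors such as CCR6 and CCR2. In skin, Defb1 is known as a gene with constitutive expression in many epithelia, whereas Defb3, Defb4 and Defb14 are known as genes that keratinocytes or airway cells raise on contact with microbes or inflammatory cytokines. Defb14 is the mouse counterpart of human beta-defensin 3, and Defb6 has been described in muscle and in several epithelia.

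Each gene was measured by 1 probe of 60 bases with 1 spot on each array. All 5 probes lie on chromosome 8 of mm9, the build named in the scanner files. The probes of Defb14 (chr8:19195152-19195211), Defb4 (chr8:19201282-19201341), Defb6 (chr8:19228090-19228149) and Defb3 (chr8:19295274-19295333) lie within 100.2 kb. The Defb1 probe (chr8:22905041-22905100) lies 3.61 Mb further on. Since the family arose by duplication, the probe sequences were compared with one another. The closest pair was Defb4 and Defb6, whose probes align over 47 bases with 37 of them identical. Their longest shared run, of 12 bases, is shown in capitals within 30 bases of each probe (bases 31 to 60 of the Defb4 probe and 19 to 48 of the Defb6 probe, both read 5′ to 3′ as deposited).
Defb4: taaaaagacgAAGAACCAGCAAgatgaata
Defb6: aaaaggaccAAGAACCAGCAAtgtgaataa
Among the other 9 pairs of member probes the longest shared run was 7 bases. No probe for another gene on the array shared a run of more than 15 bases with any of the 5. Probes were compared with probes only and not with whole transcripts, so binding of other RNAs to the 5 probes was not determined. How much Defb6 RNA binds the Defb4 probe was not tested.

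Pnpla1, the targeted gene, had an intensity of 579 ± 58.2 in wild-type and 114 ± 12.6 in knockout skin, where ± is the error that the scanner software assigns to a single spot. After each array was divided by its 75th percentile, 2108 in wild-type and 1734 in knockout skin, the log2 difference (Pnpla1-/- minus Pnpla1+/+) was −2.07. The lower signal was on the array labelled knockout, but it was still well above background there, and whether the probe lies in the removed part of the gene was not determined. The skin label was set against markers of keratinocytes. All 6 basal markers (such as Krt5 and Krt14) and all 6 suprabasal markers (such as Krt1, Krt10 and Lor) were well above background on both arrays. The median difference was 0.15 in each list, and it turned to −0.13 in both without scaling and to −0.21 in both with spike-in centring. Within the basal list Krt14 was higher by 1.35, or 0.99 with spike-in centring, and Krt15 was at −1.67, while the suprabasal list held no gene past 2-fold. All 6 skeletal muscle markers were well above background too, with a summed scaled signal of 218 in wild-type and 251 in knockout skin and a median difference of 0.06, or −0.30 with spike-in centring. The labels name skin as the tissue, and transcripts of muscle were thus measured with those of keratinocytes.

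All 5 beta-defensin genes were higher in knockout skin, by 2.33 on the log2 scale at the least. Only 3 of them were well above background in wild-type skin, and all 5 were in knockout skin. The scanner software sets that flag for each spot, and genes called below background in what follows are those without it. On these arrays 6.69% of the 22382 genes with a difference or a bound were at least 2-fold higher in knockout skin and 3.04% at least 2-fold lower, with a median difference over all of them close to 0 (0.003). These were 1497 higher and 681 lower genes, a split that turned to 997 and 1423 without scaling and to 897 and 1777 with spike-in centring. Since the genes were chosen with these values known, nothing is read from the count of 5 beside that share. In bulk RNA of this kind, more cells that express a gene and more RNA per cell cannot be told apart.

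**Figure D1:**
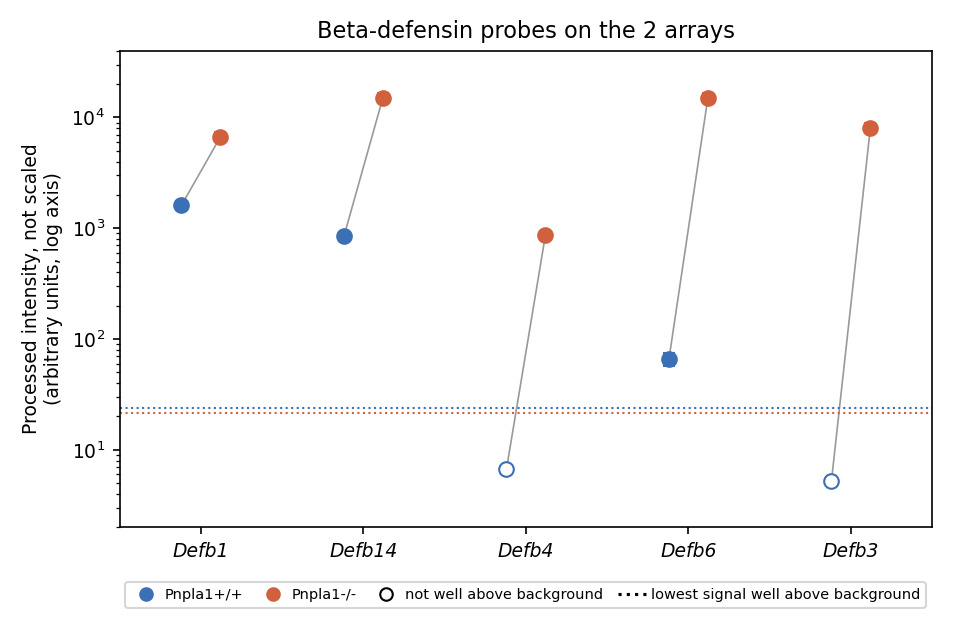
Processed intensity of the 5 beta-defensin probes (log axis, arbitrary units, before scaling) in Pnpla1+/+ (blue) and Pnpla1-/- (orange) skin, 1 spot per array, with the scanner's error as bars, mostly hidden by the points, where the spot was well above background. Every orange point lies above its blue partner, and the Pnpla1+/+ spots of Defb4 and Defb3 (open circles) lie under the lowest signal called well above background (dotted lines, 23.9 and 21.7). Heights of different probes are not comparable.

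Defb1 had the smallest difference of the 5 genes. Its intensity was 1610.3 ± 161 in wild-type and 6672 ± 667 in knockout skin. The log2 difference after scaling was 2.33, or 5.04-fold, with an error of 0.20 carried over from the errors of both spots. It ranked 250 among the 20683 genes that were well above background on both arrays, of which 5.65% were at least 2-fold higher.

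Defb14, the counterpart of human beta-defensin 3, was well above background on both arrays. Its intensity was 845 ± 84.7 in wild-type and 15083 ± 1508 in knockout skin. The log2 difference was 4.44 ± 0.20, or 21.7-fold, and ranked 56 among genes measured on both arrays.

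Defb6 had the largest measured difference of the family. Its intensity was 65.6 ± 9.02 in wild-type and 15089 ± 1509 in knockout skin, a log2 difference of 8.13 ± 0.25 that ranked 9 of 20683. This 280-fold difference rests on a dim wild-type spot. That spot was flagged as well above background, but the brightest of 153 negative control spots on the same array had an intensity of 73.9, and 2 of the 153 were flagged as well above background themselves. The median negative control on that array was 5.81.

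Defb3 and Defb4 were well above background in knockout skin only, and their differences are therefore given as lower bounds. The bound sets the Pnpla1-/- signal against the lowest signal called well above background on the Pnpla1+/+ array, 23.9. That limit is not a ceiling for spots without the flag. Defb30, below background on both arrays, had an intensity of 28.8 in wild-type skin. A value given as "at least" is thus set against such a limit, under the scanner's background correction. Defb3 had an intensity of 5.20 in wild-type skin, inside the range of the negative controls and under their median, and of 8105 ± 811 in knockout skin. It was at least 412-fold higher (log2 bound 8.69, or 6.89 with normexp background correction in place of the scanner's). Defb4 had 6.66 in wild-type skin and 866 ± 86.8 in knockout skin. It was at least 44.0-fold higher (log2 bound 5.46, or 3.42 with normexp). Before any background subtraction the Defb3 spot had a mean pixel value of 56.4 in wild-type skin, 2.26 times its local background, and of 8854 in knockout skin, 385 times its local background. For Defb4 the mean pixel values were 47.3 and 787, or 1.75 and 29.2 times the local background. Both wild-type spots lay within the span of mean pixel values of the negative controls, 36.0 to 122.

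The 5 genes differed by unequal amounts. Among the 3 measured on both arrays, Defb6 differed from Defb14 by 3.69 ± 0.32 on the log2 scale and Defb14 from Defb1 by 2.11 ± 0.29, where the errors are again those of the scanner. Each gap was larger than its scanner error. The median SD of a log2 difference between repeated spots of a probe was smaller still, 0.04 over 309 probes with at least 8 spots, but neither figure holds the variation between mice. The gap of Defb6 also rests on its dim wild-type spot and was smaller with normexp, where Defb6 was at 7.07 and Defb14 at 4.34. Since a bound has no upper end, the place of Defb3 and Defb4 in this order is not known, beyond what the bounds give. The bound of Defb3 lay above the differences of Defb6, Defb14 and Defb1, and that of Defb4 above those of Defb14 and Defb1. With normexp background correction in place of the scanner's, the bound of Defb3 (6.89) lay under the difference of Defb6 (7.07) and that of Defb4 (3.42) under Defb14's (4.34), which leaves the order within each pair undecided.

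**Figure D2:**
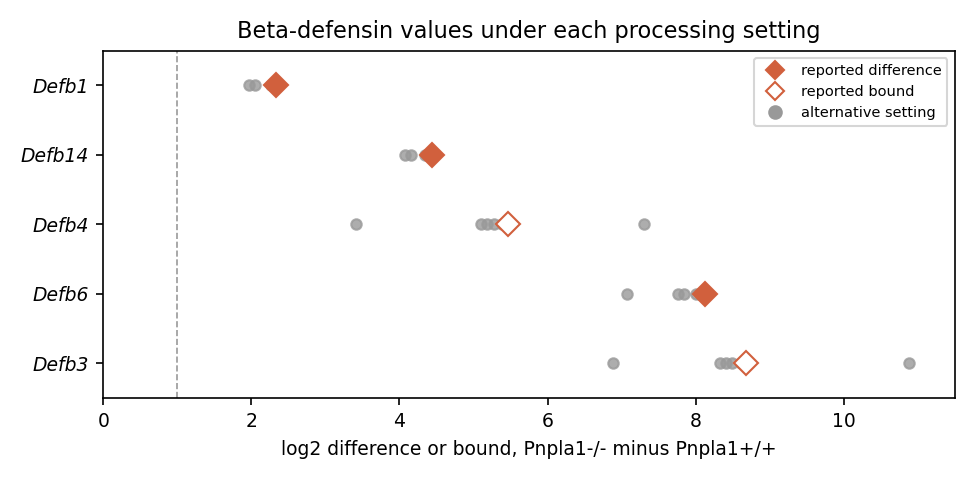
Log2 difference (filled diamond) or lower bound (open diamond) of each beta-defensin gene as reported, and its value under each alternative setting (grey points). Dashed line, 2-fold. All values lie to the right of 2-fold, the lowest being 1.97 for Defb1, and the widest spread is that of Defb3 and Defb4, from 6.89 to 10.89 and from 3.42 to 7.31. The upper ends of these 2, without a filter on dim probes, are ratios over wild-type spots not well above background.

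The rest of the defensin family was mostly not well above background. Of 38 other beta-defensin genes with a probe, most of them known from the epididymis and testis, 28 were not well above background on either array. The other 10 (Defb7, Defb11, Defb21, Defb22, Defb25, Defb26, Defb34, Defb36, Defb42 and Defb45) were dim, the brightest spot being that of Defb26 in wild-type skin at an intensity of 122. Their differences and bounds ran from −0.60 (Defb26) to 1.56 (Defb7), with a median of 0.22, or −0.14 with spike-in centring. At least 2-fold higher were 2 of them, Defb7 and Defb21, and both are bounds from a spot well above background in knockout skin only. For Defb22 and Defb34, also measured on 1 array each, the bounds of 0.50 and −0.56 leave this undecided. Defb7 had intensities of 5.52 in wild-type and 58.0 in knockout skin and was at least 2.95-fold higher. Defb21 had 5.37 and 48.9 and was at least 2.48-fold higher. The brightest negative control on the Pnpla1-/- array was at 49.2, above the Defb21 spot and under the Defb7 spot. With normexp background correction 0 of the other beta-defensin genes were at least 2-fold higher.

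Alpha-defensins are the related peptides of intestinal Paneth cells. Of 25 genes named as alpha-defensins, 12 were below background on both arrays, and the median over the 13 others (Defa1, Defa3, Defa23, Defa28, Defa31, Defa39, Defa40, Defa42, Defa-ps1, Defa-ps12, Defa-rs2, Defa-rs10 and Defa-rs12) was 0.05, or −0.31 with spike-in centring. A value past 2-fold was seen for 1 of the 13, while Defa39, with a bound of 0.96, and Defa28 and Defa3, with bounds of −0.50 and −0.23, were measured on 1 array each and may or may not lie past it. Defa-ps12, listed as a pseudogene, had an intensity of 5.32 in wild-type and 295 in knockout skin and was at least 14.99-fold higher (log2 bound 3.91, or 2.35 with normexp). Its probe (chr8:19212701-19212760) lies between those of Defb4 and Defb6, and the reference table lists Defb46-ps among its older names. It shares a run of 11 bases with the Defb4 probe, with 19 of 22 aligned bases identical. The Paneth cell markers Mmp7 and Ang4 had differences of −0.29 (0.12 with normexp background correction) and −0.19, and Pla2g2a was below on both arrays, while Lyz1, a lysozyme gene, was higher by 2.25.

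The genes around the 5 probes were then compared. Within the span of the 5 probes and 1 Mb on each side, 93 genes had a probe, and 51 of them do not carry a defensin name. Some of these 51 are probes without a gene symbol. Spag11a and Spag11b are also among the 51 and were below background on both arrays. Well above background on both arrays were 39 of the 51. Of these 39, 0 were at least 2-fold higher, beside 5.65% of all genes so measured. Nothing is read from this count beside that share. The median of the 39 was −0.16, with a highest value of 0.53. A further 3 were measured on 1 array each, with bounds of 0.81, 0.44 and −0.71 that do not show whether they passed 2-fold. In the other direction 1 of the 39 was past 2-fold, Agpat5, an acyltransferase of phospholipid synthesis 313 kb before the Defb14 probe. Its intensities were 18792 in wild-type and 2947 in knockout skin, a difference of −2.39. This count holds for the main scaling. Spike-in centring, which moved the median of all genes by −0.363, also takes Dkk4 (−0.94 as scaled here), Ckap2 (−0.78), NAP114286-1 (−0.72) and Atp7b (−0.68) past 2-fold lower. Without scaling, which moved it by −0.283, Dkk4 and Ckap2 pass as well. Both settings also lower the median of the 39. Among the 18 other beta-defensin genes in the span, 15 were below background on both arrays. Defb46 and Defb5, whose probes lie between those of Defb6 and Defb3, were among these, with intensities of 6.23 and 7.26 in wild-type and 5.72 and 16.3 in knockout skin. Along the chromosome, Defb14, Defb4, Defa-ps12 and Defb6, all higher in knockout skin, were followed by Defb46 and Defb5, both below background, and then by Defb3.

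**Figure D3:**
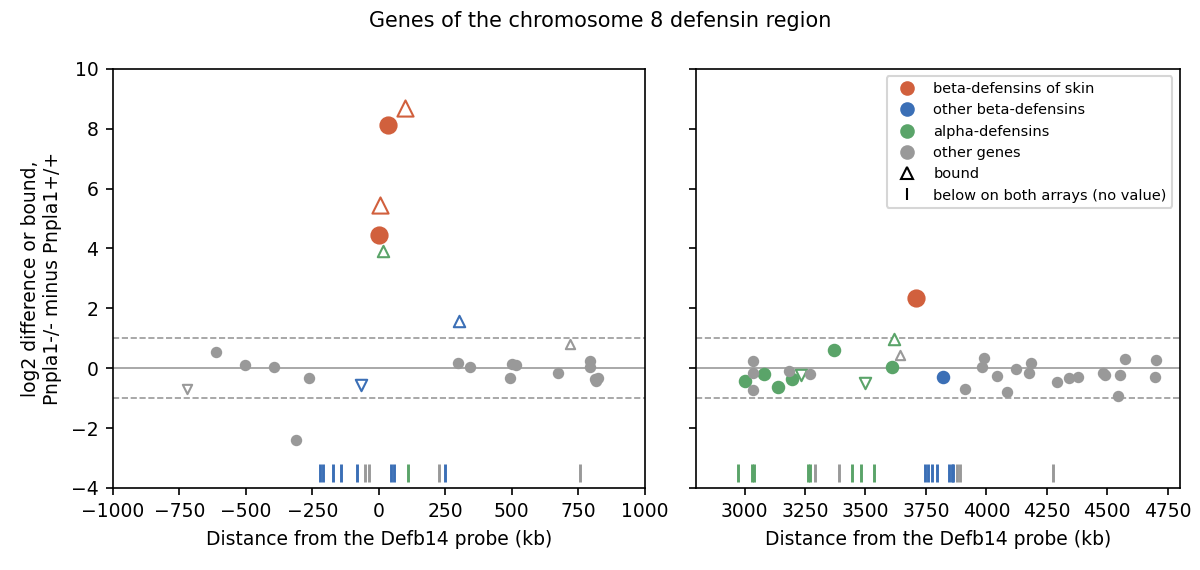
Log2 difference or bound (vertical axis) of genes on chromosome 8 against the distance of their probe from the Defb14 probe in kb, in 2 windows. Circles are measured on both arrays, triangles are bounds and ticks at the bottom mark genes below background on both. The 5 beta-defensins of skin (orange) stand at 2.33 and above, Defa-ps12 (green triangle, left) is at 3.91, Defb7 (blue triangle pointing up) at 1.56 and Defa39 (highest green triangle, right) at 0.96, all 3 being lower bounds. Other genes measured on both arrays (grey circles) lie between −2.39 and 0.53.

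Sequences before the transcription start were read for 2 of the 5 genes, Defb3 and Defb6, from RefSeq on GRCm38.p6. They are shown because they were the only 2 of the 5 members with a window in the table used here. The 250 bases before each start (Defb3, chr8:19293111-19293360 and Defb6, chr8:19225228-19225477, both on the plus strand) are given 5′ to 3′, with matches to the motifs searched in capitals.
Defb3: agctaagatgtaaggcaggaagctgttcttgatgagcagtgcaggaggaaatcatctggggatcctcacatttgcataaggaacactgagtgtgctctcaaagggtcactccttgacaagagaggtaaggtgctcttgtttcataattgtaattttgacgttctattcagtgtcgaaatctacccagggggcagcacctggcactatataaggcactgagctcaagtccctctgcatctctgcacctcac
Defb6: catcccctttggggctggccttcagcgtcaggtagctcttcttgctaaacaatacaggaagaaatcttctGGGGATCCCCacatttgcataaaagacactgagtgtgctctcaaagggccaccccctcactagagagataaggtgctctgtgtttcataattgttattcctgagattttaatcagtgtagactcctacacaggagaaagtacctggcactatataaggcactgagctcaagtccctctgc
Both strands were searched for the consensus of NF-κB, a factor of inflammatory signalling, here given by name. The AP-1 motif was searched as TGANTCA. For STAT factors the motif used was TTCNNNGAA, and for the start-site element it was TATAAA. The only match in either window was GGGGATCCCC, a palindrome read by the NF-κB consensus on both strands, 180 bases before the start of Defb6. Of 32851 windows of this length, 3.90% held an NF-κB match, 6.75% an AP-1, 7.02% a STAT and 12.4% a TATA match. No match says only that these letters are not in this window.

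The windows of Defb3 and Defb6 are close copies, with 192 of 235 aligned bases identical (81.7%) and a longest shared run of 40 bases. Of the other defensin genes in the table, 4 had a window that aligned with that of Defb6 over at least 200 bases, and 3 of these genes were below background on both arrays. Identity to the Defb6 window was 79.3% for Defb46, 79.4% for Defb5, 81.5% for Defb8 and 70.7% for Defb7. The bases aligned to the NF-κB match are shown in capitals with up to 15 bases on each side, to set genes that were higher beside genes that were below background (chr8:19225283-19225322 for Defb6, chr8:19293153-19293192 for Defb3, chr8:19247372-19247411 for Defb5, chr8:19239690-19239727 for Defb46, all on the plus strand, with chr8:19494889-19494928 for Defb7, on the plus strand too, and chr8:19447773-19447812 on the minus strand for Defb8).
Defb6, higher in knockout skin: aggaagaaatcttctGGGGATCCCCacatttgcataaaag
Defb3, higher in knockout skin: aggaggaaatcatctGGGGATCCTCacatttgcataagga
Defb7, higher in knockout skin: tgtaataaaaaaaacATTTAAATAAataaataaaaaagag
Defb5, below background on both arrays: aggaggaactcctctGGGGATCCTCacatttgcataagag
Defb8, below background on both arrays: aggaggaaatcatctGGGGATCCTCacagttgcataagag
Defb46, below background on both arrays: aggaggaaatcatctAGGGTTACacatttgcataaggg
Defb3, Defb5 and Defb8 hold the same 10 bases here, each 1 mismatch away from the NF-κB consensus. Defb3 was at least 412-fold higher (log2 bound 8.69, or 6.89 with normexp), and Defb5 and Defb8 were below background on both arrays. Whether these bases bear on expression was not tested. In Defb46 only 8 bases align. In Defb7, at least 2.95-fold higher in knockout skin, the stretch has 7 mismatches, and its window holds a match to 1 of the other motifs searched. With normexp the log2 bound of Defb7 was 0.80, under 2-fold. A match or a mismatch here is a description of the letters only.

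Genes of other antimicrobial proteins were mostly higher in knockout skin. Of 15 such genes, all with a difference or bound, 11 were at least 2-fold higher, none was at least 2-fold lower, and the median was 3.85, or 2.33 with normexp. The largest was Slpi, a protease inhibitor with antimicrobial activity, with intensities of 244 in wild-type and 45044 in knockout skin (log2 difference 7.81). S100a8 and S100a9, the subunits of calprotectin, which binds metal ions that microbes need, had differences of 6.26 and 4.67. Lcn2, which binds bacterial siderophores, was at 4.71. The peptidoglycan recognition proteins Pglyrp4, Pglyrp1 and Pglyrp3 had differences of 4.16, 3.02 and 2.92, or 3.19, 2.33 and 2.16 with normexp. The other 4 were under 2-fold. Camp, the only cathelicidin of the mouse, had intensities of 2828 and 2642 (difference 0.18), and the ribonucleases Ang and Rnase4 were at 0.03 and 0.14. The values of these 3 turned negative when the arrays were centred on spike-in RNA, to −0.18 for Camp, −0.33 for Ang and −0.22 for Rnase4. Adm was at 0.74.

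**Figure D4:**
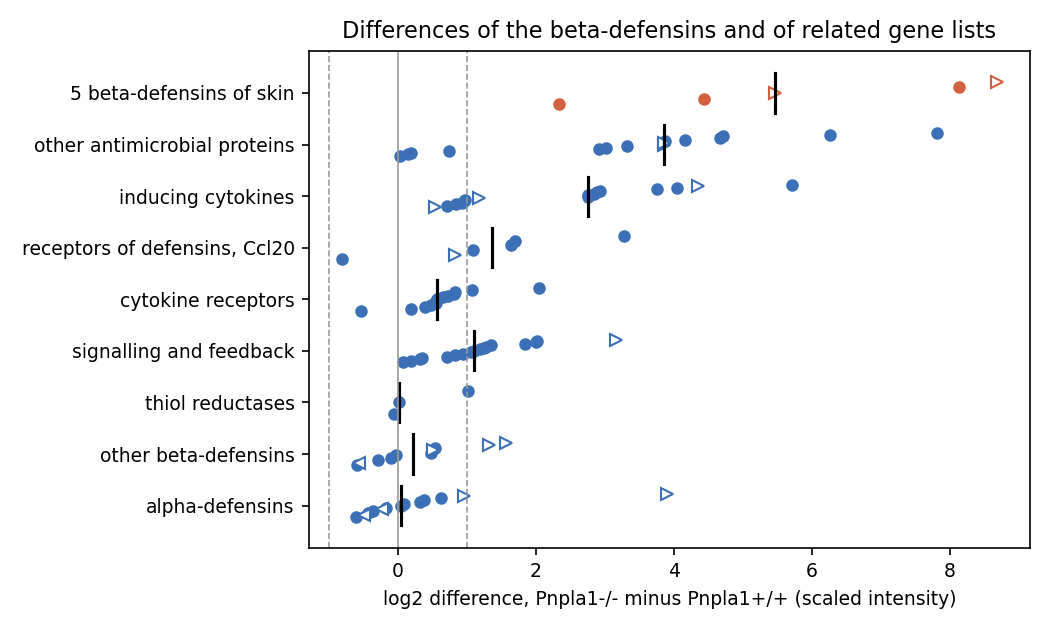
Log2 difference (horizontal axis) of each gene in 9 lists. Filled points are measured on both arrays, open triangles are bounds that point away from 0, and black bars are list medians. Dashed lines, 2-fold. The medians are 3.85 for other antimicrobial proteins (2.33 with normexp), 0.22 for other beta-defensins and 0.05 for alpha-defensins, the latter 2 turning negative (−0.14 and −0.31) with spike-in centring. The bar of the 5 beta-defensins, which were chosen by these values, stands at the bound of Defb4.

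Cytokines known to induce antimicrobial peptides in keratinocytes were compared next. Of 16 genes, 10 were at least 2-fold higher and the median was 2.76, or 1.996 with normexp. The count was 9 without scaling and with quantile normalization, spike-in centring or normexp, and 8 of the 13 genes measured on both arrays. The largest value was that of Il19, a member of the interleukin-20 family, with intensities of 24.1 in wild-type and 1044 in knockout skin (difference 5.72, or 4.04 with normexp). Il17c, the interleukin-17 family member made by epithelia themselves, was well above background in knockout skin only, with an intensity of 402, and was at least 20.4-fold higher (log2 bound 4.35, or 2.74 with normexp). Il1f6, the older symbol of interleukin-36α, had a difference of 4.04, and Il1a one of 3.76. The interleukins that T cells supply were dim. Il17a had intensities of 20.6 and 28.5 (at least 1.45-fold higher), Il17f of 36.6 and 49.1 (difference 0.71) and Il22 of 56.0 and 87.6 (difference 0.93). In Pnpla1+/+ skin all 3, and the Il19 spot too, were under the brightest negative control (73.9).

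The receptors for these cytokines differed less. Of 13 receptor genes, all well above background on both arrays, 2 were at least 2-fold higher and the median was 0.56. The median was 0.28 without scaling and 0.20 with spike-in centring. Osmr, the receptor subunit for oncostatin M, had a difference of 2.04 and Il1rl2, the interleukin-36 receptor, one of 1.07. Il1rl2 was at 0.68 with normexp background correction, leaving 1 gene of the 13 past 2-fold. That count was also 1 without scaling and with quantile normalization or spike-in centring. The next in size were Il22ra1 at 0.82 and Ifngr1 at 0.81. Il17ra, Il17rc and Il17re, the receptor subunits of the interleukin-17 family, had differences of 0.39, 0.65 and −0.54. Among 17 adaptors, transcription factors and feedback genes, 10 were at least 2-fold higher, with a median of 1.096. Without scaling 5 of them were past 2-fold and the median was 0.81, and with spike-in centring 4 were and it was 0.74. Rel, an NF-κB subunit, was well above background in knockout skin only (at least 8.96-fold higher, a log2 bound of 3.16 that was 1.90 with normexp). Fosl1, a subunit of AP-1, had a difference of 2.01, and Tnfaip3 and Nfkbiz, which NF-κB induces, had differences of 1.998 and 1.84. Nfkbiz encodes IκBζ, a cofactor that interleukin-17 uses to raise defensin genes. Rela and Jun had differences of 0.35 and 0.06, which became −0.01 and −0.30 under spike-in centring.

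On the receiving side, 6 receptor genes and the chemokine gene Ccl20 were measured. All 6 receptors had a difference or bound, and 4 were at least 2-fold higher, with a median of 1.36 (3 with normexp or spike-in centring). Ccr6 was well above background in knockout skin only, at an intensity of 34.8 (at least 1.77-fold higher), and Ccl20, which shares this receptor, was below background on both arrays. Ccr2 had intensities of 52.5 and 417 (difference 3.27, or 2.18 with normexp). Tlr2, Tlr1 and Tlr4, receptors for microbial products, had differences of 1.69, 1.64 and 1.08, and Mc1r, a melanocortin receptor that some beta-defensins bind, had −0.81, which passed 2-fold lower with spike-in centring (−1.17) and without scaling. Of the enzymes that reduce disulfide bonds, as is known to activate Defb1's human counterpart, Txn1 and Txnrd1 had differences of 0.01 and −0.07, the former −0.35 under spike-in centring, and Glrx had 1.02, which was under 2-fold in 6 of the 11 alternatives, at 0.66 in the lowest.

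Leukocyte genes also differed between the arrays. Of 10 neutrophil markers, 6 were at least 2-fold higher in knockout skin and none lower, with a median of 2.27 and a summed scaled signal of 44.9 in wild-type and 48.9 in knockout skin. The median was 1.497 with normexp background correction and 1.21 over the 9 markers measured on both arrays, and 5 markers were past 2-fold in each case. Csf3r was the brightest and made up most of that sum, with a difference of 0.04, which became −0.32 under spike-in centring. The sum therefore says little of the other neutrophil markers. Ly6g and Elane had differences of 0.42 and 0.05, the latter −0.31 under that centring, and Mpo and Cxcr2 were higher by 4.35 and by at least 5.90 (2.98 and 4.31 with normexp). Of these markers, Camp and Ltf are also counted among the antimicrobial proteins above. Of 5 macrophage markers, Adgre1 and Cd14 were at least 2-fold higher (median 0.84, summed signal 15.4 and 22.3, brightest Csf1r). With spike-in centring Adgre1 and Cd14 were at 0.88 and 0.66, under 2-fold, and the median was 0.48. Itgam was at −0.03 by its brightest probe and at 1.32 as a mean over its probes. By such means 3 of the 5 were past 2-fold and the median was 1.02. Of 5 T cell markers 1 was at least 2-fold higher, Il2rb at 1.04 (median −0.40, summed signal 0.51 and 0.53, brightest Cd3e). With normexp background correction Il2rb was at 0.57 and the median of the list was −0.04, while spike-in centring gave a median of −0.76. Of 4 markers of mucosal or corneal epithelium, Krt13 was the brightest and was higher by 1.15 but lower, at −0.44, as a mean over its probes, Krt4 was well above background in wild-type skin only at an intensity of 32.4, Krt76 was below background on both arrays and Krt12, well above background in wild-type skin only, had a bound of −4.67 (−2.69 with normexp). The summed signal of these 4 was 7.70 in wild-type and 16.4 in knockout skin. The part of these cells in the beta-defensin values was not tested.

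By the nearness of both scaled log2 signals, over 2 arrays, the gene most like Defb6 was Saa3, an acute-phase protein, at a distance of 0.04, with intensities of 66.7 in wild-type and 14713 in knockout skin. The next was the pseudogene Sprr2j-ps at 0.97. On the Pnpla1+/+ array the spots of Defb6 and Saa3 both lay under the brightest negative control (73.9), so their nearness there rests on dim signals. Nearest to Defb14 were Serpina3g and Lce3e, a serine protease inhibitor and a cornified envelope gene, at 0.45 and 0.46. Nearest to Defb1 were the growth factor Hbegf and the hydrolase gene Abhd12b, both at 0.19. These distances set the signals of different probes side by side and say nothing of amounts of RNA or of shared control.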

How the data were processed

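RNA from 1 pool per genotype was labelled with Cy3 and hybridized to Agilent Mouse 4x44K v2 arrays. The authors extracted spot intensities with Agilent Feature Extraction 11.5.1.1 and deposited a background-subtracted, detrended intensity with its error and flags, not scaled between arrays. They also deposited a table of ratios of that intensity to 1 factor per array (2109 and 1734). Here log2 intensities were centred on the upper quartile (75th percentile) of the 43020 non-control spots of an array, repeated spots averaged after outlier-flagged spots were left out, and each gene represented by the brightest of its probes that were well above background on the most arrays (Python 3.11.15, numpy 2.4.6, pandas 2.3.3). Names were updated through RefSeq (GRCm38.p6), which matched 31455 of 39429 probes. Where a single array measured a gene, a bound was set on the other array, at its own dim signal or the lowest signal flagged as well above background, whichever was higher, and 7735 genes below on both have none. Named were all 5 members, every detected defensin and the 4 largest differences of each pathway list with others of the same lists. Also named were the 2 nearest genes of each measured member. Neighbours measured on both arrays were named where they were past 2-fold in the main setting or with spike-in centring. Further list and marker genes, and the defensins below background that are named, were chosen after their values were seen. The members and lists were chosen with earlier results of these data known. Alternatives changed the scaling, the background correction (normexp, limma 3.58.1 in R 4.3.3), the probe summary, the filters and the fold threshold. The computation was tested on simulated data, with changes placed only in genes with a bright probe on the wild-type array. That test did not cover bounds or genes measured only by dim spots. Precision is limited by the number of arrays.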

Additional observations from a re-analysis of the deposited data

How the results depend on the processing

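All 5 beta-defensin genes kept their direction under each of the 11 alternatives that gave them a value, with ranges of 1.97 to 2.33 for Defb1, 6.89 to 10.89 for Defb3, 3.42 to 7.31 for Defb4, 7.07 to 8.13 for Defb6 and 4.08 to 4.44 for Defb14. Scaling by the median gave 2.26, 8.62, 5.39, 8.06 and 4.37 in that order, and −2.14 for Pnpla1. Without scaling the values were 2.05, 8.40, 5.18, 7.85 and 4.16, and −2.35 for Pnpla1. Centring on E1A spike-in probes gave 1.97, 8.33, 5.10, 7.77 and 4.08, and −2.43 for Pnpla1. Quantile normalization gave 8.49 for Defb3, 5.28 for Defb4, 8.001 for Defb6, 4.38 for Defb14 and −2.14 for Pnpla1. Normexp background correction gave 6.89, 3.42, 7.07 and 4.34 for the same 4 genes and −1.51 for Pnpla1. Without a filter on dim probes Defb3 was at 10.89 and Defb4 at 7.31. These are ratios over wild-type spots not well above background (5.20 and 6.66), so the upper ends of both ranges are neither bounds nor measured differences. When genes had to be measured on both arrays these 2 genes had no value, which leaves 3 of the 5.

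Of all genes, 1497 were at least 2-fold higher and 681 lower, so that 68.7% of those past 2-fold were higher. That share was 41.2% without scaling (997 higher, 1423 lower), 33.5% with spike-in centring (897 and 1777), 58.7% with quantile normalization and 74.9% with normexp (959 and 321). These first 2 settings moved the median of all genes by −0.283 and −0.363. Without the dim-probe filter, which moved it by 0.102, 3042 were higher and 1106 lower. A threshold of 1.5-fold gave 3091 and 2091 genes, and 3-fold gave 683 and 228. The median of the inducing cytokines was 2.69 (median scaling), 2.47 (none), 2.66 (quantile), 2.40 (spike-in) and 1.996 (normexp). That of the other antimicrobial proteins was 3.78, 3.57, 3.66, 3.49 and 2.33 in that order, and 3.33 with probes above background on both arrays. The causes of these shifts were not tested. No paired analysis was possible because each genotype has 1 array. Both arrays lay on the same slide, so no slide effect could be estimated. Signal over background limits Defb3, Defb4 and the wild-type value of Defb6.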
